A study of Mus musculus with 4 samples.

Results

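The cells described here are the B cells among CD45+ cells of mouse liver, profiled in 4 libraries with the 5′ single-cell chemistry of 10x Genomics. They were chosen by the UMI values (unique molecular identifiers, 1 per captured transcript) of marker genes. A B cell had 600 to 6000 detected genes, at most 5% mitochondrial UMIs, at least 4 UMIs of Cd79a, Cd79b and Ms4a1 together with at least 1 of Cd79a, at most 1 UMI of Cd3d, Cd3e and Cd3g together, and none of Csf1r or Siglech. Of 39121 deposited cells, 36286 passed the limits on genes and mitochondrial UMIs (kept cells), and 3117 of these (8.59%) met the rule. There were 1255 B cells in the young WT library, 698 in DEN-CDHFD–treated WT, 461 in DEN-CDHFD–treated miR-146a−/− and 703 in DEN-CDHFD–treated DKO.

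The study asked how loss of the microRNA miR-146a, and then of the chemokine gene Ccl5, bears on liver cancer that follows a carcinogen and a fatty diet. All mice were female, on the C57BL/6 background. Young WT mice were untreated and 8 weeks old. The other 3 groups (WT; miR-146a−/−, which lacks miR-146a; and DKO, which is miR-146a−/− Ccl5−/−) were given the carcinogen diethylnitrosamine (DEN) i.p. at 25 mg/kg on day 14, were weaned on day 21 onto a choline-deficient diet with 60% fat (CDHFD), and were 36 weeks old by the labels. Both deletions were present in every cell of the animal, so B cells and their neighbors lacked the genes alike. Each group was 1 library, and the number of mice in a library is not stated. Young and treated WT differed in age, carcinogen and diet at once, and these cannot be told apart. Below, treated WT, miR-146a−/− and DKO mean the treated groups, and values in a row of 4 follow the order young WT, treated WT, miR-146a−/− and DKO.

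B cells recognize antigen through a surface immunoglobulin held by Cd79a and Cd79b, present it on MHC class II, and can become antibody-secreting plasma cells. Follicular B cells recirculate through blood and lymphoid tissue, germinal center B cells divide and edit their antibody genes, and B-1 and age-associated B cells are found in body cavities, in inflamed tissue and with age. The liver holds mostly recirculating B cells, along with T cells, NK cells and macrophages, and miR-146a restrains NF-κB signaling in many of these by targeting Irak1 and Traf6.

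The gene deleted in 2 of the groups encodes miR-146a-5p, shown here because its seed (bases 2 to 8, in capitals) sets which transcripts it can pair with, next to miR-146b-5p, which has the same seed and was not deleted. The sequences are from RefSeq. The miR-146a-5p sequence lies at chr11:43374435-43374456 on the minus strand and that of miR-146b-5p at chr19:46342790-46342811 on the plus strand (GRCm38.p6).
miR-146a-5p: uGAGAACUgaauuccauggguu
miR-146b-5p: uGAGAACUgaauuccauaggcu
Matches to this seed (AGTTCTC, in capitals, with flanking bases) in the 3′ UTRs of 2 known targets, Irak1 and Traf6, are shown since both transcripts were measured in the B cells. They lie at chrX:74015391-74015408 (Irak1, minus strand) and at chr2:101697951-101697968 (Traf6, plus strand), on GRCm38 with GENCODE M21 annotation.
Irak1 3′ UTR: gaggtcaaAGTTCTCatg
Traf6 3′ UTR: tggtgttgAGTTCTCatt
The longest annotated 3′ UTR of each protein-coding gene was used. That of Irak1 held 2 matches and that of Traf6 held 4, where 2327 of 21001 genes (11.1%) had at least 1 match in it. The mature miRNA itself is not measured by this method.

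Markers that the rule did not use fitted the label. Ebf1, a transcription factor of B-cell fate, was at 1014, 843, 1016 and 904 CPM (counts per 10⁶ UMIs, gene and total both summed over the B cells of a library), against at most 2.96 CPM in T-gated cells, which had at least 4 UMIs of the Cd3 genes and at most 1 of the B-cell genes. Pax5, which maintains that fate, was at 240.1, 248, 279.99 and 227 CPM. These levels were high in all 4 libraries, and none of the 18 genes of the B-cell identity list was 2-fold apart in any of the 3 comparisons below. Over the pooled libraries the largest ratios of B cells to the other kept cells among genes outside the rule were those of Fcer2a, the low-affinity IgE receptor of follicular B cells (77.1-fold), Prg2, a granule protein gene (73.5-fold), and Vpreb3, a chaperone of immunoglobulin assembly (72.9-fold). Prg2 marks few of the cells, at 1555 CPM in the plasma-cell-like cluster 7 below and 1.04 in all other B cells.

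Few cells lay near the limit on the B-cell genes, and more at that on the Cd3 genes. The summed marker count had a median of 36, 44, 47 and 44 UMIs and was exactly 4, the lowest value allowed, in 7, 2, 1 and 0 B cells. Just outside, 10, 9, 0 and 5 cells that met the other conditions had a sum of 3, and 17, 9, 0 and 4 cells had 2 UMIs of the Cd3 genes. Inside, 133, 59, 16 and 31 B cells carried 1 Cd3 UMI, the most allowed. The rule also left out some cells rich in Jchain, the joining chain of secreted antibody. Of cells with at least 100 Jchain UMIs, 7, 9, 8 and 12 lay outside the gate and 25, 14, 4 and 33 inside it, so the plasma cells described here are a part of those present.

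B cells made up the largest share of the kept CD45+ cells in young WT liver and the smallest in miR-146a−/− liver. The share was 12.2% (95% interval 11.6 to 12.9) in young WT, 8.38% (7.79 to 8.996) in treated WT, 5.89% (5.38 to 6.44) in miR-146a−/− and 7.14% (6.64 to 7.66) in DKO. The 4 intervals did not overlap. All intervals in this text are exact and cover counting error only, and with 1 library per group no test between groups was possible. Treated WT was 3.82 points below young WT (difference −3.82, interval −4.69 to −2.95), miR-146a−/− differed from treated WT by −2.49 points (−3.28 to −1.70), and DKO from miR-146a−/− by 1.24 points (0.512 to 1.97). A share depends on the other cells counted: of B cells and T-gated cells alone, B cells were 19.9%, 16.9%, 11.3% and 17.0%, which places DKO level with treated WT.

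**Figure D1:**
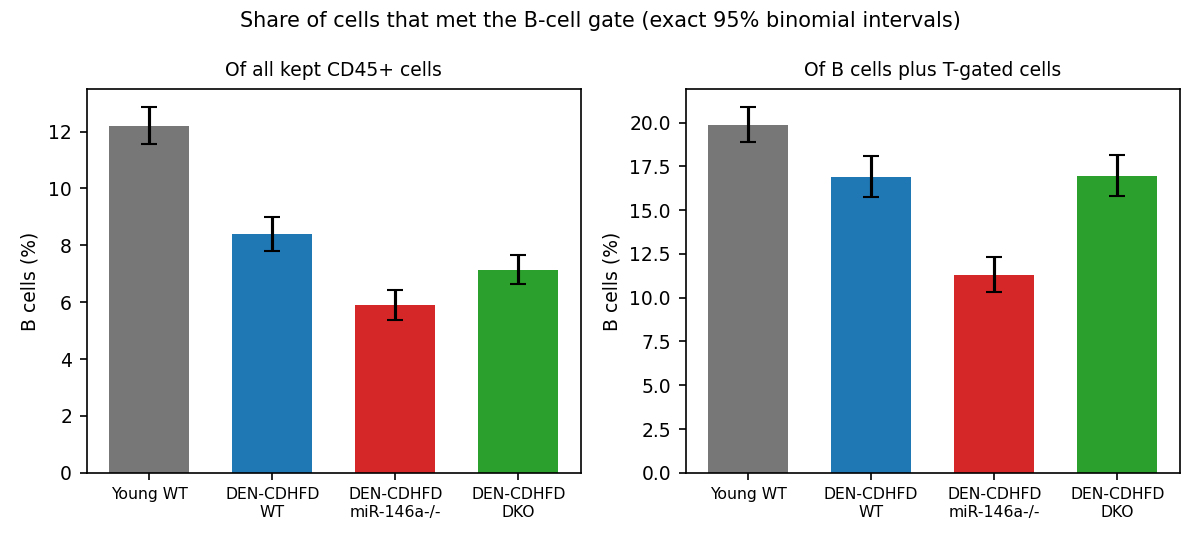
Bars show the share of cells that met the B-cell rule in each library, of all kept CD45+ cells (left) and of B cells plus T-gated cells (right), with exact 95% binomial intervals. The share of kept cells runs from 12.2% in young WT to 5.89% in miR-146a−/−, and on the right DKO (17.0%) stands beside treated WT (16.9%).

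B cells of the 4 libraries were sequenced to similar depth. The median was 5701, 6927.5, 7071 and 6774 UMIs per B cell and 2150, 2412, 2481 and 2350 detected genes, so young WT cells were the shallowest. T-gated cells had medians of 7307, 7543, 7074 and 6650 UMIs. Between any 2 libraries 109 to 150 deposited barcodes were the same, and among B cells 0 to 4.

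Clustering of the 3117 B cells, with V, D and J segment genes left out, gave 8 clusters. Clusters 1 (1103 cells) and 2 (843 cells) were follicular-B-like, the first led by Klf4, Nr4a1, Hspa1b and Fos and the second by Rapgef4 and Ighd. Cluster 3 (613 cells; Cfp, Il4i1, Bhlhe40) fitted no list and stays unnamed. Cluster 4 (265 cells) was led by neutrophil genes from 3 cells and so has no name by the rule. Without these 3 cells, a step added after seeing the data, its leading genes (Zbtb32, Nrp2, Cd80, Sox5, Bhlhe41 and others) held 2 of the B-1 list and 1 of the age-associated B list. All 8 and 9 genes of these lists were detected, as they also were in cluster 5. By the count of leading genes the rule would call it B-1-like. Zeb2 and Cd80 of the age-associated list were higher there too, at 398 and 64.7 CPM (151 and 7.48 in the other B cells). So were Tbx21 and Itgax, at 58.3 and 42.0 CPM (30.3 and 12.1). These levels include the 3 cells. Cd5 was at 9.08 CPM, in 6.79% of its cells. The name thus does not set B-1 apart from age-associated B cells. Cluster 5 (90 cells) was led by NK-cell genes such as Gzma and Ncr1, and 55 of its cells carried at least 10 UMIs of the NK marker list. Cluster 6 (85 cells) was germinal-center-B-like, cluster 7 (81 cells) was plasma-cell-like, and cluster 8 (37 cells, led by Tox and Parp8, with a median of only 2728 UMIs) met the rule for germinal center B cells through 1 gene, Mybl1. Clusters 6 and 7 were deep instead, with medians of 23884 and 35426 UMIs. In young WT and treated WT, cluster 1 held most cells (54.4% and 36.8%), while in miR-146a−/− and DKO it was cluster 2 (50.1% and 44.4%). The genes that lead clusters 1 and 2 differed between the libraries as a whole (see immediate-early genes below), so these sizes are a description of the composition and were not compared.

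**Figure D2:**
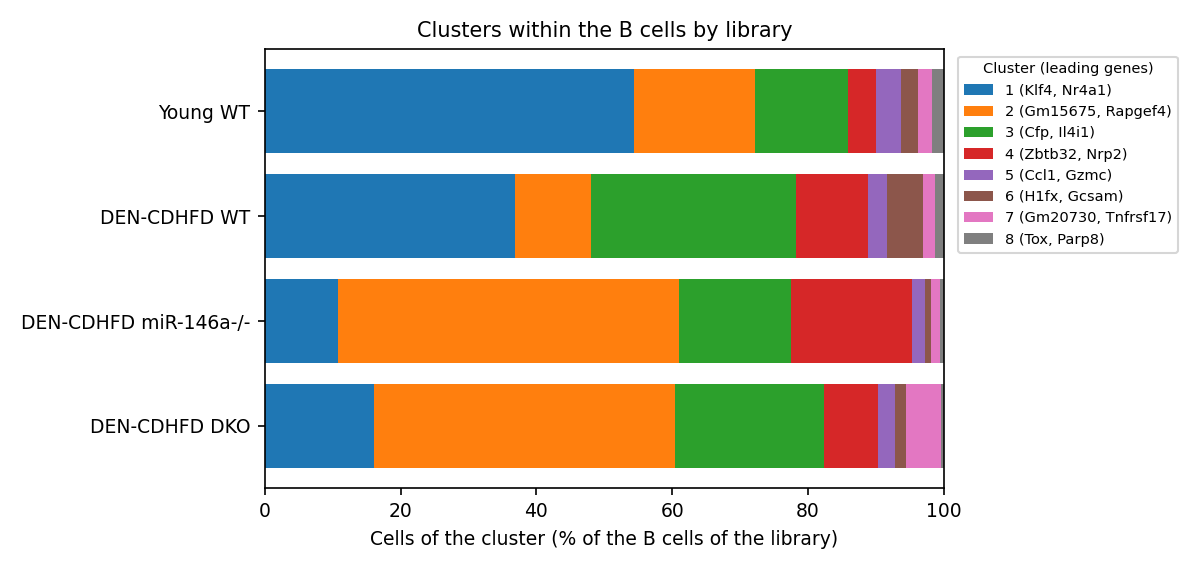
Stacked bars show the percentage of the B cells of each library in each of the 8 clusters, labelled by their leading genes. Cluster 1 is the widest band in young WT (54.4%) and treated WT (36.8%), and cluster 2 in miR-146a−/− (50.1%) and DKO (44.4%).

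Antigen receptor transcripts showed a diverse population in each library. A single heavy-chain V gene dominated in 2698 of 3117 B cells (86.6%), spread over 94 genes, and Ighv1-26 was the most frequent in every library, at 6.62%, 7.85%, 6.37% and 6.02% of these cells. Lambda light chains were used by 3%, 5.06%, 5.25% and 4.65% of cells with 1 dominant light-chain V gene. Of 699, 402, 311 and 467 distinct heavy and light pairs, 569, 341, 284 and 407 were seen once. The most frequent pair of each WT library, picked out after the values were seen, lay mostly in the germinal-center-like cluster 6. Ighv1-26 with Igkv4-68 occurred in 12 treated WT cells, 9 of them in cluster 6, and Ighv1-53 with Igkv3-2 in 9 young WT cells, 7 of them in cluster 6. Cells of 1 class that had switched from IgM and IgD to IgG or IgA were 16 of 1073 (1.49%, 0.855 to 2.41), 21 of 598 (3.51%, 2.19 to 5.32), 16 of 410 (3.90%, 2.25 to 6.26) and 18 of 633 (2.84%, 1.69 to 4.46). The share was lowest in young WT, and all 4 intervals overlapped.

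Treated WT against young WT. B cells of treated WT liver differed little from those of young WT in most gene groups. Cell-cycle genes lay higher, though not among all subsets of cells, and so did a small set that includes Cfp and Il9r, while follicular genes and the immediate-early genes lay mostly lower. Genes were tested where either library of the pair had 50 CPM and 20 UMIs or more. Of 3235 such genes, 28 were at least 2-fold higher (0.866%) and 40 at least 2-fold lower (1.24%), and the median log2 ratio of all was 0.07. Without V, D and J segment genes, an alternative added after seeing the data, 6 were higher and 4 lower. Here and below a share near such a background is not a result about the members of a list.

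Cfp and Il9r stood out among the rises, and both were far lower in T-gated cells. Cfp, which encodes properdin of the alternative complement pathway, was at 33.8, 98.3, 85.2 and 84.6 CPM, a log2 ratio of 1.54 (interval 1.34 to 1.74) for treated over young WT, and at most 5.73 CPM in T-gated cells, while myeloid-gated cells expressed it as well (125, 124, 150.4 and 160.3 CPM). Il9r, the receptor for interleukin 9, was at 36.0, 93.03, 124 and 89.6 CPM (log2 ratio 1.37, 1.17 to 1.57). Both were lower in young WT than in the 3 treated libraries. Cfp led cluster 3, which held 13.7%, 30.2%, 16.5% and 21.9% of the B cells. Among the 430, 186, 159 and 283 B cells without a UMI of any T, NK, myeloid or neutrophil marker, Cfp was at 14.3, 84.6, 22.5 and 42.1 CPM, so miR-146a−/− stood nearer to young WT there, and Il9r was at 35.3, 97.9, 108 and 70.3 CPM. Apoe, the lipid carrier apolipoprotein E, was at 271, 618, 369 and 409 CPM in B cells. It was highest in treated WT there, and in T-gated cells as well (22.8, 152, 35.5 and 22.4 CPM). Its log2 ratio of treated over young WT was 1.19, but 0.51 without the cells that had at least 10 Jchain UMIs and 0.83 without those with a Mki67 or Top2a UMI. Socs1, a brake on cytokine receptor signaling, was at 26.8, 51.6, 14.4 and 24.6 CPM, with its peak in treated WT.

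Cell-cycle genes were higher in treated WT than in young WT, 2 of 9 tested by at least 2-fold and all 9 above 0 (median log2 ratio 0.67, against 0.07 for all genes). Mki67, a protein of dividing nuclei, was at 58.9 (95% interval 54.1 to 64.03) CPM in young WT and 123 (115 to 132) in treated WT. Rrm2, a subunit of the enzyme that makes deoxynucleotides, was at 25.01 and 51.4 CPM in the same libraries. In T-gated cells the median of the same genes was 0.57. Cells with at least 10 UMIs of the list numbered 50 in young WT (3.98%) and 57 in treated WT (8.17%), so few B cells carried most of this signal. Of the 9, 3 met the minimum through treated WT alone, Rrm2 among them, which favors a rise; with a minimum of 10 CPM all 13 list genes were admitted and none was below 0. The 2 calls did not hold in each setting. With TMM factors Mki67 was at 0.993 and Rrm2 under the minimum, and among B cells without a UMI of any T, NK, myeloid or neutrophil marker Mki67 was at 31.8 CPM in young WT and 11.9 in treated WT, with a list median of −0.16.

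Genes of follicular B cells were all 8 below 0 (median −0.35; −0.29 in T-gated cells), none by 2-fold. Fcer2a was at 408, 287, 192 and 217 CPM. Klf2, which keeps B cells in recirculation, was at 2106, 1378, 1317 and 958 CPM. Cd55, which protects cells from complement, was at 429, 263, 345 and 279 CPM. Each of the 3 was highest in young WT. After each cell was thinned to 2000 UMIs, a Fcer2a UMI was found in 55.4%, 41.9%, 33.4% and 38.3% of B cells (79.4%, 70.5%, 56.4% and 62.02% without thinning) and in at most 0.207% of T-gated cells.

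The plasma cell list had 1 of 5 tested genes at least 2-fold lower in treated WT, Jchain, at 3944 and 1743 CPM (log2 ratio −1.18). This call ended by means over cells (−0.51) and among B cells without a UMI of any T, NK, myeloid or neutrophil marker (−0.72). Among immunoglobulin constant genes 1 of 9 tested passed 2-fold, Ighg2b, at 436 and 48.4 CPM (log2 ratio −3.17), and 3 cells held 73.4% of its UMIs in young WT. Without the cells that had at least 10 Jchain UMIs Ighg2b was at 14.9 and 41.8 CPM, the other way round and under the minimum. Of the immediate-early genes 15 of 17 tested were below 0 and none by 2-fold (median −0.22; −0.09 in T-gated cells). Heat-shock genes had a median of −0.03, and Hspa1b, an inducible chaperone, was at 459 and 238 CPM, lower in treated WT.

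miR-146a−/− against treated WT. This comparison and the last share the treated WT library, so they are not independent. Immediate-early and heat-shock genes were lower in miR-146a−/− B cells, and so were germinal center and cell-cycle genes, while the tested genes of the B-1 list, and Zeb2, were higher. Of 3336 genes tested, 55 were at least 2-fold higher (1.65%) and 80 at least 2-fold lower (2.4%), with a median log2 ratio of −0.02. Without V, D and J segment genes these were 25 and 51.

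Of 17 immediate-early genes tested, 16 were below 0 and 5 were at least 2-fold lower (Fos, Fosb, Jun, Nr4a1 and Dusp1; median −0.71). Fos, a subunit of the AP-1 transcription factor, was at 1564, 1023, 287 and 464 CPM in B cells (log2 ratio of miR-146a−/− over treated WT −1.83, interval −1.92 to −1.74). Jun, its partner, was at 931, 609, 288 and 401 CPM (−1.08). Nr4a1, a nuclear receptor induced by antigen receptor signaling, was at 375, 279, 112 and 122 CPM (−1.32). All 3 were high in the 2 WT libraries and low in miR-146a−/− and DKO. A Fos UMI was found in 67.6%, 64.2%, 28.2% and 34.3% of thinned B cells (80.9%, 85.0%, 52.7% and 55.8% without thinning).

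This pattern was not particular to B cells. In T-gated cells Fos was at 602, 447, 72.6 and 101 CPM (log2 ratio −2.62), with a UMI in 40.6%, 36.6%, 9.84% and 11.4% of thinned cells. Of the 17 genes 6 were at least 2-fold lower there (median −0.76). No share over all genes was computed for T-gated cells, so that count stands without a background. Cd83, an activation marker that B cells express far above T cells, was at 1001, 965, 534 and 623 CPM. Cd69, an early activation receptor that retains lymphocytes in tissue, was at 503, 433, 299 and 392 CPM. Both were lowest in miR-146a−/− without passing 2-fold. The lower levels were thus measured in both cell types of the same libraries.

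Heat-shock genes were lower as well. All 9 tested were below 0 and 2 were at least 2-fold lower (median −0.55; −0.43 in T-gated cells). Hspa1a, an inducible chaperone, was at 283, 179.96, 50.3 and 39.0 CPM in B cells (log2 ratio −1.84) and at 491, 243, 109 and 112 CPM in T-gated cells. Hspa1b was at 459, 238, 93.5 and 61.97 CPM (−1.35). Dnajb1, which assists these chaperones, was at 297, 213, 116 and 118 CPM (−0.88). For these 3 genes young WT was highest and the 2 libraries without miR-146a were lowest, in B and in T-gated cells.

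**Figure D3:**
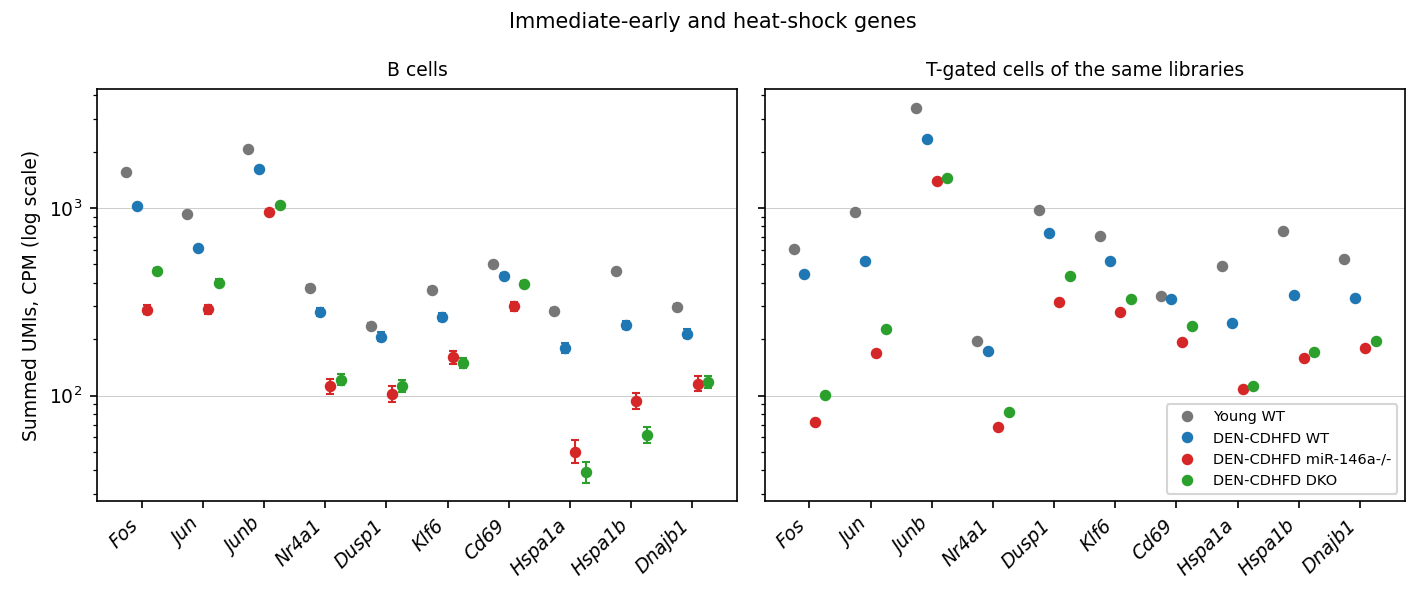
Points show the level of 10 immediate-early and heat-shock genes in summed CPM on a log scale, in B cells (left, with exact 95% Poisson intervals) and in T-gated cells (right), colored by library. Fos stands at 1564 and 1023 CPM in the WT B cells and at 287 and 464 CPM in miR-146a−/− and DKO, and T-gated cells have the same order (602, 447, 72.6 and 101 CPM).

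Germinal center genes were lower in miR-146a−/− B cells. The list summed to 270.03, 373, 83.7 and 143.6 CPM, and 35, 32, 3 and 12 cells carried at least 10 of its UMIs. Mef2b, a transcription factor of germinal center B cells, was at 56.2, 104, 8.54 and 33.7 CPM (log2 ratio −3.58, interval −4.14 to −3.11). Gcsam, a signaling protein of these cells, had 176, 211, 0 and 17 UMIs, at least 46.3-fold lower in miR-146a−/− than in treated WT. Without the cells that had at least 10 Jchain UMIs it had 23, 8, 0 and 3, so this bound rests on those cells. Rgs13, which limits chemokine responses, was at 23.6, 30.2, 3.17 and 18.6 CPM. Over all B cells these genes were high in both WT libraries and lowest in miR-146a−/−. Only 3 of the 8 list genes passed the minimum for testing, all 3 were below 0, and Mef2b and Neil1 were at least 2-fold lower (median −1.04, against −0.02 for all genes). The 3 met the minimum through treated WT alone, which favors a fall. With a minimum of 10 CPM, which admits the whole list, all 8 were below 0 with a median of −3.39 (−0.01 for all genes). Bcl6, the repressor that directs germinal center B cells, was at 68.3, 60.3, 33.7 and 35.4 CPM, and so was still detected. Without the cells that had at least 10 Jchain UMIs, Mef2b was at 23.1 and 8.19 CPM in treated WT and miR-146a−/− and Neil1 at 36.1 and 29.9, both under the minimum. Rgs13 was there at 6.55, 4.46, 3.33 and 15.3 CPM, highest in DKO. Mef2b and Neil1 also fell under the minimum by means over cells and without the cells that had a Mki67 or Top2a UMI.

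Cell-cycle genes were lower along with them, 7 of 9 tested by at least 2-fold (median −1.50; −0.29 in T-gated cells). Of the 9, 7 met the minimum through treated WT alone; with a minimum of 10 CPM all 13 list genes were admitted and all were below 0. Mki67 was at 123 CPM in treated WT, 20.02 (15.9 to 24.8) in miR-146a−/− and 54.7 in DKO. Top2a, which untangles replicated DNA, was at 62.2, 124, 30.5 and 58.95 CPM (log2 ratio −2.02). Ube2c, which directs cyclin destruction at mitosis, was at 72.5, 103, 8.30 and 45.95 CPM (−3.62). The gap between treated WT and miR-146a−/− was wide in B cells, whereas in T-gated cells Mki67 was at 120.0 and 90.4 CPM. Few cells carried these transcripts: 57 B cells in treated WT (8.17%) and 17 in miR-146a−/− (3.69%) had at least 10 UMIs of the list, and cluster 6 held 37 and 4 cells. In young WT the share was 3.98% and in DKO 3.41%. A lower number of such cells and a lower level per cell were not separated. Among B cells without a UMI of any T, NK, myeloid or neutrophil marker Mki67 was at 11.9 and 4.51 CPM, under the minimum. Without the cells that had at least 10 Jchain UMIs only Mki67 (−1.73) and Top2a (−1.26) stayed 2-fold lower, Hmgb2 was at −0.83 and Stmn1 at −0.61, and Birc5, Mcm3 and Rrm2 fell under the minimum. By means over cells Birc5, Mcm3, Rrm2 and Ube2c were under the minimum.

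Of 3 B-1 list genes tested, all 3 were at least 2-fold higher in miR-146a−/− (median 1.10; 0.12 in T-gated cells). Itgb1, the β1 integrin of adhesion to matrix, was at 67.3, 91.3, 196 and 95.99 CPM (log2 ratio 1.10, interval 0.95 to 1.26). Zbtb32, a transcription factor that limits recall responses, was at 8.69, 28.9, 60.8 and 18.6 CPM (1.07), and met the minimum through miR-146a−/− alone. S100a6, a calcium-binding protein, was at 76.6, 85.6, 323 and 75.9 CPM (1.91). The 3 genes were highest in miR-146a−/−, and DKO stood near treated WT or below it. Cluster 4, which held 4.22%, 10.6%, 17.8% and 7.97% of the B cells, had Zbtb32 at 163 CPM (9.25 in the other B cells), Itgb1 at 448 (66.1) and S100a6 at 577 (70.5). A higher number of such cells and a higher level per cell were not separated. Zbtb32 was at 0.94 without the cells that had at least 10 Jchain UMIs, and Itgb1 at 0.96 by means over cells. Zbtb32 fell under the minimum by means over cells and without the cells that had a Mki67 or Top2a UMI. Among list genes under the minimum, Spn, the sialoglycoprotein CD43, was at 19.5, 18.2, 44.9 and 22.4 CPM, and Bhlhe41, a regulator of B-1a cells, at 10.8, 20.6, 34.7 and 18.3 CPM. Cd5, the receptor that defines B-1a cells, was at 3.29, 3.86, 3.66 and 2.12 CPM, low in all 4 libraries. Ctla4, a checkpoint receptor gene on the list, went the other way, at 18.2, 29.4, 4.64 and 13.3 CPM (−2.63), with 90.7, 307, 178 and 184 CPM in T-gated cells. With a minimum of 10 CPM 7 of the 8 list genes were admitted, 1 of them below 0, with a median of 1.07.

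Of the age-associated B list 1 of 5 tested genes was at least 2-fold higher, Zeb2 (median 0.37; −0.30 in T-gated cells). Zeb2, a transcription factor that directs age-associated B cells, was at 99.8, 145, 336 and 175 CPM (log2 ratio 1.22, interval 1.10 to 1.34). A Zeb2 UMI was found in 14.1%, 18.02%, 35.1% and 21.03% of thinned B cells (31.4%, 41.5%, 58.8% and 47.2% without thinning). In T-gated cells it was found in 4.95%, 9.31%, 6.63% and 6.79%. Tbx21, the factor T-bet, was at 26.9, 31.98, 51.8 and 23.9 CPM (0.69). Fcrl5, an inhibitory Fc receptor-like protein, was at 46.1, 67.7, 87.1 and 64.8 CPM (0.37). These 3 had their peak in miR-146a−/− over all B cells. Fas, a death receptor gene, was at 28.1, 50.6, 38.3 and 32.8 CPM, and Nt5e, the ectoenzyme CD73, at 11.5, 21.4, 13.9 and 8.77 CPM, both highest in treated WT. Itgax, the integrin CD11c, was at 9.86, 7.07, 31.2 and 16.9 CPM, below the minimum for testing.

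Summed over all B cells, markers of myeloid cells moved with this result. The 11 myeloid markers summed to 42.8, 71.8, 147 and 71.95 CPM, with 9, 10, 9 and 10 detected, Csf1r at 0 by the rule and Clec4f at 0 in young WT and miR-146a−/−. Adgre1 was the most abundant in young WT and DKO and Lyz2 in treated WT and miR-146a−/−. In miR-146a−/− 7 cells held 45.4% of these UMIs. Without the cells that carried at least 10 neutrophil or 10 NK marker UMIs, Lyz2 was at 29.0 CPM in treated WT and 15.9 in miR-146a−/−, the other way round. Zeb2 is also expressed by myeloid-gated cells (486, 766, 799.5 and 738 CPM). Among B cells without a UMI of any T, NK, myeloid or neutrophil marker, the log2 ratio of miR-146a−/− over treated WT was 0.76 for Zeb2, 0.23 for Tbx21, −0.09 for Fcrl5, 1.06 for Itgb1 and 1.37 for Zbtb32. Zeb2 thus no longer passed 2-fold, and Fcrl5 had its peak in treated WT. Itgax had 4 UMIs in treated WT and 1 in miR-146a−/− there.

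**Figure D4:**
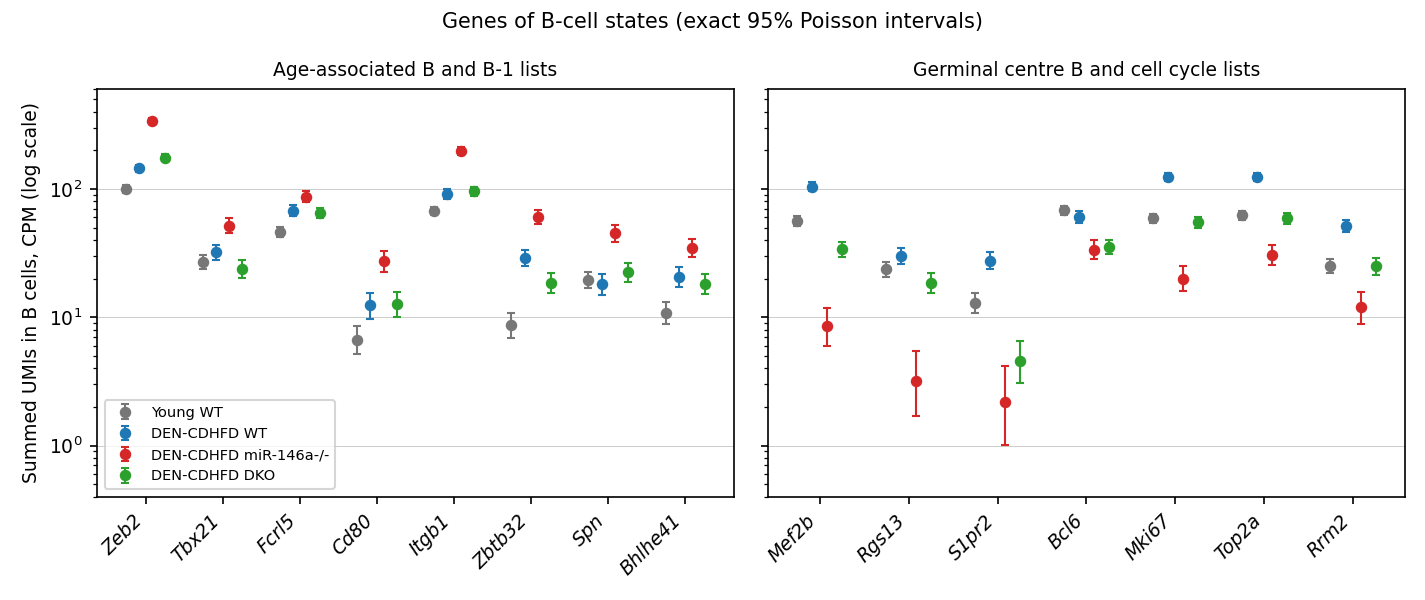
Points show summed CPM in B cells on a log scale with exact 95% Poisson intervals, for genes of the age-associated B and B-1 lists (left) and of the germinal center B and cell cycle lists (right), colored by library. In miR-146a−/− Zeb2 (336 CPM) and Itgb1 (196 CPM) are at their highest, and Mef2b (8.54 CPM) and Mki67 (20.02 CPM) at their lowest.

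Of the 10 largest rises in miR-146a−/−, 7 were neutrophil genes carried almost wholly by 3 cells. S100a8 and S100a9, the calprotectin subunits of neutrophils, had 9, 3, 6627 and 24 UMIs together, and 3 of 461 miR-146a−/− B cells carried 99.6% of them, the first of these 3272 UMIs. The neutrophil list summed to 1.38, 0.482, 1686 and 3.78 CPM, with 4, 1, 5 and 3 of 5 markers detected, S100a9 the most abundant in each and Cxcr2 at 0 outside miR-146a−/−. Camp, Ngp, Ltf, Lcn2 and Retnlg, genes of neutrophil granules or secretion, were the other 5. T-gated cells had 36.0, 16.3, 253 and 190 CPM of the neutrophil list. Ccl1, a chemokine of activated lymphocytes, had 357 UMIs in 1 miR-146a−/− B cell and none in treated WT. Clec2g, a C-type lectin gene, was at 62.7, 62.2, 155 and 100.07 CPM, and 255 of the 461 miR-146a−/− B cells carried it. Without the cells that carried at least 10 neutrophil or 10 NK marker UMIs, an alternative added after seeing the data, S100a6 was still higher in miR-146a−/− (68.4 CPM in treated WT and 239 in miR-146a−/−), and Zeb2 and Itgb1 had log2 ratios of 1.21 and 1.17.

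**Figure D5:**
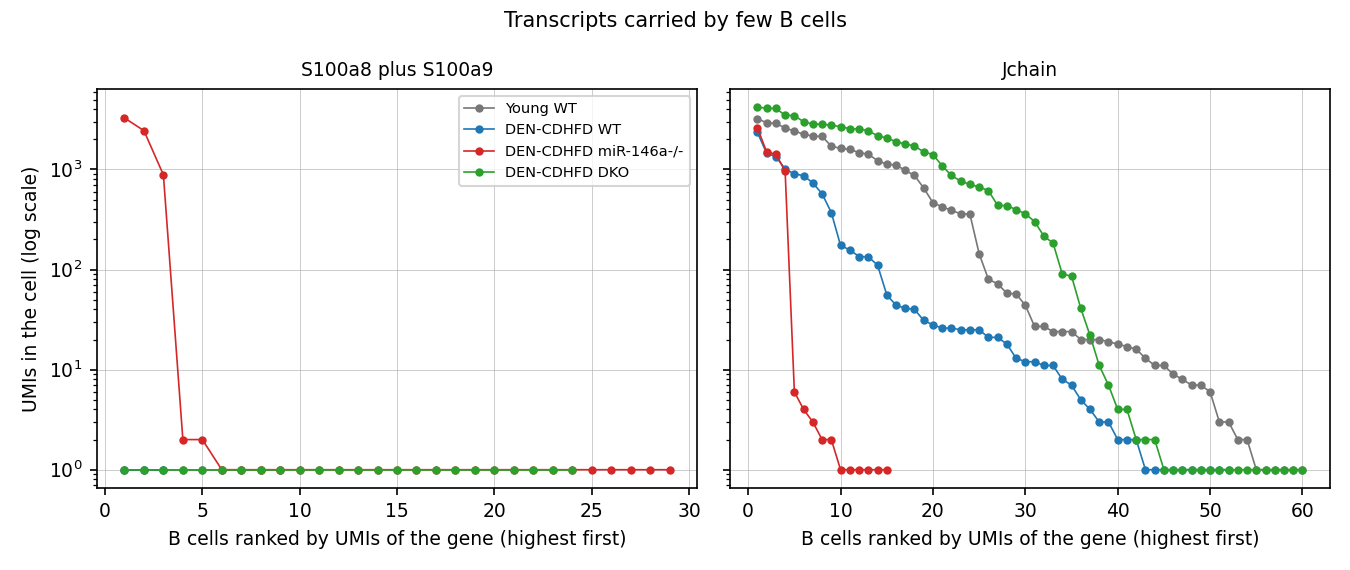
Points show the UMIs of S100a8 plus S100a9 (left) and of Jchain (right) in the 60 B cells with the most UMIs of each library, ranked, on a log scale; cells without a UMI are not drawn. In miR-146a−/− 3 cells carry 99.6% of the S100a8 and S100a9 UMIs, and Jchain is carried by 45, 33, 4 and 38 cells with at least 10 UMIs.

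The seed of miR-146a marked no group of transcripts that stood apart. Genes with a match in the 3′ UTR had a median log2 ratio of 0.01 (370 genes, 0 higher and 5 lower by 2-fold), and genes without one −0.03 (2805 genes, 21 higher and 43 lower). Of the 6 known target genes tested none was 2-fold apart (median −0.15). Irak1, a kinase below Toll-like and interleukin 1 receptors with a seed match printed above, was at 58.1, 59.5, 64.9 and 54.7 CPM. Traf6, the ubiquitin ligase that it activates, was at 31.6, 36.5, 28.1 and 26.5 CPM, under the minimum and so not among the 6 tested. Both were alike in the 4 libraries, well under 2-fold apart. Of 14 genes for NF-κB subunits and their feedback inhibitors none was 2-fold apart and 12 were below 0 (median −0.22). Rel, the subunit c-Rel of activated B cells, was at 391, 349, 225 and 219.8 CPM (log2 ratio −0.63), lower in both libraries without miR-146a.

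Secretory genes were below treated WT in part. The plasma cell list had 1 of 5 tested genes at least 2-fold lower, Derl3 (log2 ratio −1.29), and a median of −0.54. Derl3 fell under the minimum with TMM factors and by means over cells, and without the cells that had at least 10 Jchain UMIs it was at 5.20 CPM in treated WT and 12.5 in miR-146a−/−, the other way round. Of 9 immunoglobulin constant genes 1 was at least 2-fold higher, Ighg2b, with 87.1% of its UMIs in 3 miR-146a−/− cells, and 2 were lower, Ighg2c and Ighg3 (median 0.27). Without the cells that had at least 10 Jchain UMIs the log2 ratios were 0.80 for Ighg2b, 1.60 for Ighg2c and 0.43 for Ighg3. Both falls turned there, and the IgG values thus rested on few cells.

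Costimulatory genes were lower to some degree, though not all of them. All 7 tested genes of T-cell help and checkpoints were below 0 in miR-146a−/− (median −0.38; −0.54 in T-gated cells), 1 of them by 2-fold. Cd86, which costimulates T cells through CD28, was at 101, 144, 66.6 and 59.9 CPM (log2 ratio −1.11, interval −1.31 to −0.91). Cd274, the PD-1 ligand PD-L1, was at 97.9, 110.5, 67.6 and 62.4 CPM (−0.71). The 2 genes were highest in treated WT and low in miR-146a−/− and DKO. With a minimum of 10 CPM 8 of 9 list genes were below 0 and 1 was at least 2-fold higher. Cd80 went the other way. Without the cells that carried at least 10 neutrophil or 10 NK marker UMIs it was at 11.4 CPM in treated WT and 27.2 in miR-146a−/− (1.25).

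DKO against miR-146a−/−. The miR-146a−/− library is shared with the comparison before. In DKO the tested genes of the B-1 list were lower than in miR-146a−/−, and secretory and immunoglobulin genes were higher through a small number of plasma-cell-like cells. Immediate-early genes, by contrast, stayed near the miR-146a−/− levels. Of 3174 genes tested, 85 were at least 2-fold higher (2.68%) and 45 at least 2-fold lower (1.42%). Without V, D and J segment genes these were 35 and 20. The median log2 ratio of all genes was −0.16, and 0.01 with TMM factors, so list medians near −0.16 here are not a change.

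All 3 tested genes of the B-1 list were at least 2-fold lower in DKO (median −1.71; 0.04 in T-gated cells). Itgb1 had a log2 ratio of −1.03 (interval −1.18 to −0.88), Zbtb32 of −1.71 (−2.03 to −1.39) and S100a6 of −2.09 (−2.24 to −1.94). With TMM factors Itgb1 was at −0.87 and without the cells that had at least 10 Jchain UMIs at −0.88, both under 2-fold. Zbtb32 fell under the minimum by means over cells and without cells with a Mki67 or Top2a UMI. Ctla4 was higher in DKO (1.49), and with a minimum of 10 CPM 6 of 7 list genes were below 0, with a median of −1.005. The age-associated list had 1 of 4 tested at least 2-fold lower, Tbx21 (−1.11), with a median of −0.69, and Zeb2 was at −0.94. Tbx21 met the minimum through miR-146a−/− alone, fell under it with TMM factors, and was at −0.99 with totals without immunoglobulin genes. The summed myeloid markers given above had the same order of these 2 libraries. Without the cells that carried at least 10 neutrophil or 10 NK marker UMIs, Lyz2 was at 15.9 CPM in miR-146a−/− and 14.4 in DKO. Among B cells without a UMI of any T, NK, myeloid or neutrophil marker the falls were as large or larger, at −1.08 for Itgb1, −3.21 for Zbtb32, −3.15 for S100a6 and −0.9996 for Zeb2. Ccl5, deleted in DKO, is one of these markers, so genotype bears on which cells were left out. That subset kept 159 miR-146a−/− and 283 DKO cells and left out 302 and 420. Sox5, a transcription factor of atypical memory B cells, was at 18.02, 49.2, 87.6 and 30.7 CPM (−1.51). Ahnak, a large scaffold protein, was at 74.3, 77.1, 191 and 89.9 CPM (−1.09). Rassf4, a Ras association domain protein, was at 27.8, 47.2, 85.9 and 38.4 CPM (−1.16). These genes shared a peak in miR-146a−/−. With TMM factors Ahnak (−0.92) and Rassf4 were just under 2-fold.

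Genes of antibody secretion were higher in DKO. Of 5 plasma cell genes tested, 4 were at least 2-fold higher (median 1.81; 0.09 in T-gated cells). Jchain was at 3944, 1743, 1588 and 9199 CPM (log2 ratio 2.53). Xbp1, which expands the secretory apparatus, was at 244, 195, 169 and 369.7 CPM (1.13). Derl3, which exports misfolded proteins from the endoplasmic reticulum, was at 43.98, 52.1, 21.2 and 92.2 CPM (2.11). DKO was the highest of the 4 libraries and young WT second for Jchain and Xbp1. B cells with at least 10 Jchain UMIs were 45, 33, 4 and 38, or 3.59% (2.63 to 4.77), 4.73% (3.28 to 6.58), 0.868% (0.237 to 2.21) and 5.41% (3.85 to 7.34), and they held at least 99.6% of the Jchain UMIs of each library. Their share was lowest in miR-146a−/−, but the rule left out 19, 11, 10 and 16 further cells with at least 10 Jchain UMIs, more than it kept only in miR-146a−/−. The part of the rule in the low share was not tested.

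Immunoglobulin constant genes followed the same cells, 6 of 11 tested at least 2-fold higher in DKO (median 1.13; 0.69 in T-gated cells). Of the 11, 4 (Ighg1, Ighg2c, Ighg3 and Igha) met the minimum through DKO alone, which favors a rise. Ighm, the heavy chain of IgM, was at 2226, 1416, 1933 and 4261 CPM. Igkc, the kappa light chain, was at 2677, 1672, 1796 and 3935 CPM. Ighg2c, an IgG heavy chain, was at 404, 439.9, 14.6 and 942 CPM, and 3 cells held 99.0% of its UMIs in DKO. Igha, the heavy chain of IgA, was at 12.7, 21.4, 46.6 and 135 CPM. Without the cells that had at least 10 Jchain UMIs the log2 ratio of DKO over miR-146a−/− was −0.26 for Ighm, −0.14 for Igkc and −0.28 for Xbp1, so the higher levels lay in those cells. Slpi, a protease inhibitor, was at 623, 425, 349.6 and 1658 CPM, and 3 cells held 77.8% of its UMIs in DKO. Prg2 was at 118, 83.2, 9.03 and 120.3 CPM, low in miR-146a−/− alone. Gm20730 had 994 UMIs in 3 DKO cells and none elsewhere in B cells, at least 205-fold.

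Over all B cells, germinal center genes lay between treated WT and miR-146a−/− in DKO, and cell-cycle genes did so in part. Among the latter, Mcm6 was at 51.8 CPM in miR-146a−/− and 43.2 in DKO. Mki67 was 1 of 5 cell-cycle genes tested and the only one at least 2-fold higher (log2 ratio 1.44, interval 1.10 to 1.81; median of the list 0.53, 0.31 in T-gated cells). Of the 5, 3 met the minimum through DKO alone, Mki67 among them; with a minimum of 10 CPM 3 of 13 list genes were below 0 and the median was 0.72. Without the cells that had at least 10 Jchain UMIs Mki67 was at 20.5 and 36.01 CPM, under the minimum. Among B cells without a UMI of any T, NK, myeloid or neutrophil marker, some genes were highest in DKO of the treated groups. In treated WT, miR-146a−/− and DKO, Mki67 was there at 11.9, 4.51 and 49.8 CPM and Stmn1 at 23.7, 9.02 and 42.6. Both were under the minimum, and Rgs13 had 3, 0 and 23 UMIs. Hmgb2 (157, 103 and 154 CPM), Pcna (48.2, 28.9 and 35.4) and Mef2b (34.9, 6.31 and 19.1) still had DKO in between. Gcsam, at 17 UMIs in DKO and 0 in miR-146a−/−, was at least 3.51-fold higher. It had 3 and 0 UMIs without the cells that had at least 10 Jchain UMIs. No germinal center gene met the minimum for testing in this pair. Fos was at 287 CPM in miR-146a−/− and 464 in DKO (0.69), and the 16 immediate-early genes tested had a median of 0.02 with none past 2-fold. Hspa1b was lower still in DKO (−0.59), and the median of the heat-shock list was −0.09.

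Ccl5, the chemokine gene deleted in DKO, was far higher in T-gated cells than in B cells. It was at 7083, 21818, 24493 and 130.4 CPM in T-gated cells, against 298, 263, 115 and 14.8 CPM in B cells. NK cells were not gated for this comparison. In B cells the level was thus low in all libraries, and lowest in DKO (log2 ratio −2.95). A Ccl5 UMI was found in 11.8%, 14.2%, 5.86% and 3.43% of thinned B cells (26.1%, 35.96%, 17.1% and 10.5% without thinning) and in 83.1%, 92.8%, 91.3% and 18.7% of thinned T-gated cells. Without cells that carried at least 10 neutrophil or NK marker UMIs, B cells were at 46.99, 57.5, 22.3 and 13.1 CPM. The 10 T-cell markers, all detected in each library and led by Ccl5 or, in DKO, by Lck, summed to 374, 326, 155 and 61.1 CPM. Outside DKO most of each sum was Ccl5 itself, so the lower sum in DKO largely restates that of Ccl5. The 8 NK markers, also all detected and led by Gzma or, in miR-146a−/−, by Nkg7, summed to 347, 261, 139.6 and 294 CPM, and 25, 15, 8 and 14 B cells with at least 10 of their UMIs held at least 83.7% of them. The part of these transcripts in the Ccl5 values of B cells was not tested.

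Other lists had few or no tested genes past 2-fold, as did all genes together, so this is not a result about their members. Of 13 genes of B-cell receptor signaling none passed 2-fold in any comparison (medians 0.05, 0.18 and −0.30 for treated over young WT, miR-146a−/− over treated WT and DKO over miR-146a−/−). Syk, the kinase next to the receptor, was at 368, 424, 541 and 422 CPM. MHC class II genes, 11 in number, had medians of 0.14, 0.01 and −0.21 and none past 2-fold. H2-Aa, a class II chain, was at 5593, 6173, 5895 and 5258 CPM. Of the 9 MHC class I genes and the 7, 7 and 5 interferon-stimulated genes tested none passed 2-fold either. With a minimum of 10 CPM, though, 10 of 14 interferon-stimulated genes were below 0 in miR-146a−/− against treated WT (median −0.46). Of these genes 3 were at least 2-fold lower, where 266 of all 8430 genes admitted were (median −0.01). In the same setting 6 of 7 B-cell cytokine genes were below 0 (median −0.82), none by 2-fold. Of homing genes 1 of 14 passed 2-fold in the last 2 comparisons, Itgb1, and Ccr7, the receptor for entry into lymphoid tissue, was at 555, 417, 323 and 356 CPM. Il10, a regulatory cytokine gene, had 17, 8, 26 and 14 UMIs, under the minimum, and 3 cells held 92.3% of those in miR-146a−/−. The lists of marginal zone B, immature B, B-cell receptor inhibitor, BAFF and CD40 receptor, Toll-like receptor, B-cell cytokine and survival genes had no tested gene past 2-fold in any comparison. Fcgr2b, the inhibitory Fc receptor of B cells, was at 130.2, 151, 199 and 134 CPM, highest in miR-146a−/−. Tnfrsf13c, the BAFF receptor, was at 249, 251, 204 and 222 CPM. Rag1, needed to assemble antigen receptor genes in immature B cells, was at 0 in all but 1 cell.

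The 6 genes that define the T-cell comparisons of the study were all detected in B cells of each library, and most were scarce. Itga4, the integrin CD49d, was the exception beside Ccl5, at 220.1, 173, 232 and 213 CPM in B cells and 286, 454, 528 and 515 in T-gated cells. Pdcd1, which encodes PD-1, had 11, 19, 6 and 17 UMIs, and Gzmk, a granzyme gene, 15, 6, 9 and 6. Tox, a nuclear factor of chronically stimulated T cells, was at 28.4, 61.9, 20.02 and 18.3 CPM in B cells, and 3 cells held 42.1% of its UMIs in treated WT. Its log2 ratio was 1.12 for treated over young WT, and in miR-146a−/− against treated WT its log2 ratio was −1.62. Among B cells without a UMI of any T, NK, myeloid or neutrophil marker it was under the minimum in both pairs. Hepatocyte markers, which trace free RNA of the tissue, summed to 51.5, 38.1, 33.2 and 27.5 CPM and erythroid markers to 1.27, 2.09, 3.66 and 1.36 CPM, low in all 4 libraries.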

How the data were processed

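CD45+ liver cells of 4 groups were sequenced as 1 library each. Reads were aligned to mm10 by the authors, with Cell Ranger 7.0.1 per the file headers, and the deposited values are counts of UMIs without normalization. Members and gene lists were chosen with earlier results of these data known. Counts were summed over the B cells of a library (9435876, 6223592, 4096568 and 6615596 UMIs) and given as CPM with exact 95% Poisson intervals; shares have Clopper-Pearson and differences Newcombe intervals. Log2 ratios used a prior of 0.5 counts, and their intervals are exact conditional binomial. With 0 UMIs, a floor of 3 counts gave "at least" folds. For shares of cells with a UMI, cells were thinned to 2000 UMIs (seed 11), leaving out 14, 10, 0 and 4 B cells. A V gene was dominant with at least 3 UMIs and 80% of the V UMIs of its chain. Doublets were limited only by the rule itself. Clusters were Leiden (resolution 0.5) on 20 components of 2000 variable genes, named only where a marker list fitted. Named genes were list members with at least 20 UMIs, the 10 largest rises and falls of each comparison (B-cell level at least 0.25 times that of the other kept cells, leaving out mitochondrial, ribosomal protein and V, D and J segment genes), genes of the study, leading genes of clusters and the 20 genes with the largest ratio to other cells. Alternatives were other limits of the rule, thinning, denominators, TMM factors, totals without immunoglobulin genes, a prior of 5, means over cells, subsets of cells, a minimum of 10 CPM and other cluster settings. Leaving out cells rich in neutrophil or NK markers, and V, D and J segment genes, were added after seeing the data. The steps were checked on simulated data. Tools were Python 3.11.15, NumPy 2.4.6, SciPy 1.17.1, pandas 2.3.3, scanpy 1.11.5, igraph 0.11.9, matplotlib 3.10.9, R 4.3.3 and edgeR 4.0.16.

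A few genes are not reported here; they stay in the list counts and medians.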

Additional observations from a re-analysis of the deposited data

How the results depend on the processing

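No paired analysis was possible because each group was 1 library, and no result comes from a test. The rule also passed cells with NK or neutrophil transcripts and missed some plasma cells, genotype and library cannot be told apart, and mice per library are not stated. The cause of a shift below was not tested unless said.

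The share of B cells was 13.0%, 9.40%, 6.70% and 8.13% with an upper limit of 4000 genes. It was 10.9% (young WT) and 7.67% (treated WT) with no Cd3 UMI allowed, and 13.0% and 9.13% after thinning to 2000 UMIs. Of B cells plus T-gated cells it was 19.9%, 16.9%, 11.3% and 17.0%, with differences of −5.59 (miR-146a−/− from treated WT) and 5.65 points (DKO from miR-146a−/−).

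Without cells that had at least 10 Jchain UMIs, 15 genes were higher and 13 lower in treated WT over young WT (53.6% of these calls higher, 41.2% before), 46 lower in miR-146a−/− over treated WT (51.1% higher, 40.7% before), and 24 higher in DKO over miR-146a−/− (39.3% higher, 65.4% before). In that setting the DKO over miR-146a−/− ratio turned for Ighm (−0.26), Igkc (−0.14), Slpi (−1.04), Xbp1 (−0.28) and the median of the immunoglobulin constant list (−0.42), since the cells left out held most of these UMIs. A minimum of 10 CPM gave 99 higher (57.6%) and 73 lower, 127 and 266, and 146 and 114. Leaving out V, D and J segment genes, added after seeing the data, gave 6 (60.0%) and 4, 25 and 51, and 35 and 20. Means over cells gave 27 lower in DKO over miR-146a−/−. By these means 6 of 8, 25 of 46 and 15 of 35 named genes past 2-fold kept their call in the 3 comparisons, and 1, 19 and 14 fell under the minimum. Without any T, NK, myeloid or neutrophil UMI 4, 16 and 15 kept it, and without Jchain-rich cells 3, 30 and 17. TMM moved the median of all genes in that pair from −0.16 to 0.01.

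Without any T, NK, myeloid or neutrophil UMI the cell-cycle median of treated over young WT turned to −0.16 and that of the genes of the study in miR-146a−/− over treated WT to 0.28. The value 0.28 is that of Ccl5, itself a T marker, which this setting puts at 0 UMIs in both libraries. It is thus no measured change. Without cells with a Mki67 or Top2a UMI the cell-cycle median of DKO over miR-146a−/− turned to −0.29. Both genes are on that list and the setting removes the cells that carry them, so nothing is concluded from this median. Resolution 1.0 gave 15 clusters. Clusters 1 and 3 did not hold in each cluster setting. At resolution 0.3, at 1.0 and with expression centered within each library, cluster 1 kept 51.2%, 35.3% and 83.8% of its cells together. Cluster 3 kept 56.3%, 36.9% and 50.2%, and cluster 4 kept 88.3%, 95.8% and 85.3%.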
